A study of Mus musculus with 20 samples.

Results

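The step from 100 pM to 1 nM of 21h10, a computationally designed protein that mimics interleukin-21, was examined in mouse CD8+ T cells by comparing the 2 libraries given 1 nM with the 2 given 100 pM for 24 hours. These 4 libraries were chosen by their sample labels, from 10 libraries of experiment 1 and 20 in the whole series. Wild-type C57BL/6J mice aged 6 to 8 weeks gave spleen CD8+ T cells, which were purified by negative selection and activated for 48 hours with anti-CD3 and anti-CD28. After a night of rest the cells received no cytokine (unstimulated), murine IL-21 (mIL-21) or 21h10, so every group, the unstimulated one included, had been activated beforehand. Experiment 1 covered both cytokines at 100 pM and 1 nM, and experiment 2 covered both at 10 nM and 100 nM with unstimulated cells of its own. Each group was a pair of libraries (n = 2), which the study calls biological duplicates for experiment 1, and its RNA-seq replicates are described as coming from different preparations of tissue or different donors. The labels do not tie libraries to animals, and p-values measure only the spread between such libraries.

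IL-21 is made by helper T cells and binds a receptor formed by IL-21R and the common gamma chain that IL-2, IL-7 and IL-15 also use. The receptor activates the kinases JAK1 and JAK3, which phosphorylate mainly STAT3 and, more weakly, STAT5, and these factors enter the nucleus and bind DNA as dimers. In CD8+ T cells the cytokine is known for supporting cytotoxic effector functions and survival, and SOCS proteins, which STATs induce, feed back to dampen the signal.

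The exons of RefSeq genes held 52569182 and 92449091 reads in the libraries with 100 pM of 21h10, and 37536666 and 53880148 in those with 1 nM. The other libraries of experiment 1 lay between 36829350 and 94079673. Levels are given as CPM, the reads of a gene scaled to a common library size after TMM, a factor per library that holds the bulk of genes level. Duplicates varied by a biological coefficient of variation of 4.32%, and none were so close that sampling noise alone would account for them (chi-square per degree of freedom of at least 2.66). On the first principal component, which held 70.2% of the variance, unstimulated libraries lay at -107 and -108, the 100 pM libraries at 30.4 and 30.0 and the 1 nM libraries at 44.6 and 43.0. The second component (18.4%) set the doses of 21h10 apart, at -6.48 and -6.75 for 100 pM against 41.9 and 45.0 for 1 nM. All 7 markers of CD8 T cells were expressed, with a summed level of 1689 to 1755 RPKM (reads per kilobase of transcript, scaled to the mapped reads of the library) at 100 pM and 1399 to 1501 at 1 nM, and 5 of the 7 fell in the dose step. Marker sums of other cell types were low: 12.5 to 13.0 RPKM at 100 pM and 10.98 to 12.7 at 1 nM for CD4 T cell markers, 20.3 to 21.0 and 19.5 to 20.4 for myeloid markers, 7.25 to 7.77 and 7.03 to 7.39 for B cell markers, 8.89 to 9.72 and 4.65 to 4.80 for NK cell markers, at most 1.70 for dendritic cell markers and at most 0.438 for erythroid markers. Only Zbtb7b (CD4 T cells), Cd68 (myeloid), Cd79b and Ebf1 (B cells), Eomes (NK cells) and Zbtb46 (dendritic cells) reached 1 RPKM in any of the 4 libraries, and none of the 5 erythroid markers did. The part of other cells in the results below was not tested. In bulk samples, fewer cells of a type and less RNA per cell cannot be told apart.

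STAT dimers are known to bind paired sites written as TTC, then any 3 or 4 bases, then GAA, a pattern that reads the same on both strands. In the RefSeq promoter set (GRCm38.p6), 12.4% of 32851 windows covering the 250 bases before a start site held such a pair and 0.965% held at least 2 pairs. A match is a description of the sequence and no evidence of binding. Among the genes named below by the size of their change, 1 of 9 risers with a window (Tgm1) and 3 of 12 fallers (Cd160, Itgax and Slc6a19) had a match. Only 78.4% of the 13974 genes tested could be joined to a window, under 80%, so shares among changed genes are not compared. Of 4 windows shown here, chosen after their values were seen because they hold the pattern and the change of their genes is described below, 3 belong to genes that rose and 1 to a gene that fell, with matches in capitals, each read 5′ to 3′ on the strand of the gene. Socs3 (chr11:117969367-117969616, minus strand) encodes the main feedback inhibitor of STAT3 signaling, Tgm1 (chr14:55713493-55713742, minus strand) encodes transglutaminase 1, Irf8 (chr8:120736108-120736357, plus strand) encodes an interferon regulatory factor, and Itgax (chr7:128129300-128129549, plus strand) encodes the integrin chain CD11c.
Socs3: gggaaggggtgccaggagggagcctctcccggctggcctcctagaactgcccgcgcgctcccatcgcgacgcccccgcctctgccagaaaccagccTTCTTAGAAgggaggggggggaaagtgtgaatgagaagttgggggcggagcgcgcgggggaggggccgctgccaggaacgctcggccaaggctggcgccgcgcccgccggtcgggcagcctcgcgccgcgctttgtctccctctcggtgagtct
Tgm1: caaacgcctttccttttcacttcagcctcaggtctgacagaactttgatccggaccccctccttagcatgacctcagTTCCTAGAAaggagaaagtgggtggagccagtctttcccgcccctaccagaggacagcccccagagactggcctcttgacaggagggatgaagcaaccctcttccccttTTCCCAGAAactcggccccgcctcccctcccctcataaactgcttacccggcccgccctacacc
Irf8: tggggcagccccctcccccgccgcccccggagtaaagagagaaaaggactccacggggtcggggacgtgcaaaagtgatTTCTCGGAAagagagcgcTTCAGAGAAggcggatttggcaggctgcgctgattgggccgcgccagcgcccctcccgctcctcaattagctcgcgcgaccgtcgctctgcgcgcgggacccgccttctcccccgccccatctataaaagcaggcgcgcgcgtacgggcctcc
Itgax: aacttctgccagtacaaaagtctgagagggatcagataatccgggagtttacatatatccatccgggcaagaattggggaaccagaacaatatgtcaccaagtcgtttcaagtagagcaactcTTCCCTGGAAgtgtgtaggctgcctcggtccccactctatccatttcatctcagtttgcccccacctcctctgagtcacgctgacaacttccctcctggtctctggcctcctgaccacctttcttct

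At 1 nM of 21h10, genes linked to STAT3, effector transcription factors and genes of the ATF4 response with tRNA synthetases were mostly higher than at 100 pM, and integrins, adhesion genes and parts of the T cell receptor complex were more often lower than higher. Among called genes with a mean of at least 1 RPKM where they were higher and no overlap between the doses, the largest rise was 18.8-fold (Il13ra1) and the largest fall 7.37-fold (Cd160), each with n = 2 libraries a dose. Of 23992 gene symbols counted, 13974 had enough reads to be tested. The edgeR quasi-likelihood test over all 10 libraries of experiment 1 called 5476 of them (39.2%) at a Benjamini-Hochberg adjusted p under 0.05, of which 2813 were higher (20.1% of genes tested) and 2663 lower (19.1%) at 1 nM. Most changes were small, with a median absolute log2 fold change of 0.37 among called genes and 64.5% of them under 0.5. Against unstimulated cells, 100 pM changed 81.6% of genes (40.2% higher, 41.3% lower) and 1 nM changed 80.3% (38.3% higher, 42.1% lower), in comparisons that share libraries with the dose step. In the step itself, changes of at least 1 on the log2 scale were seen for 403 higher genes (2.88%) and 259 lower genes (1.85%). The share of calls that were higher was 51.4% with TMM, 57.2% with median-of-ratios scaling, 58.3% with DESeq2, 33.9% when libraries were scaled by their total reads and 37.5% in limma on RPKM. The median over all genes moved from -0.0057 with TMM to -0.084 with total reads. With 2 libraries against 2, the smallest p of a two-sided exact permutation test is 0.33, so the tests here draw on a spread estimated across genes and groups.

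**Figure D1:**
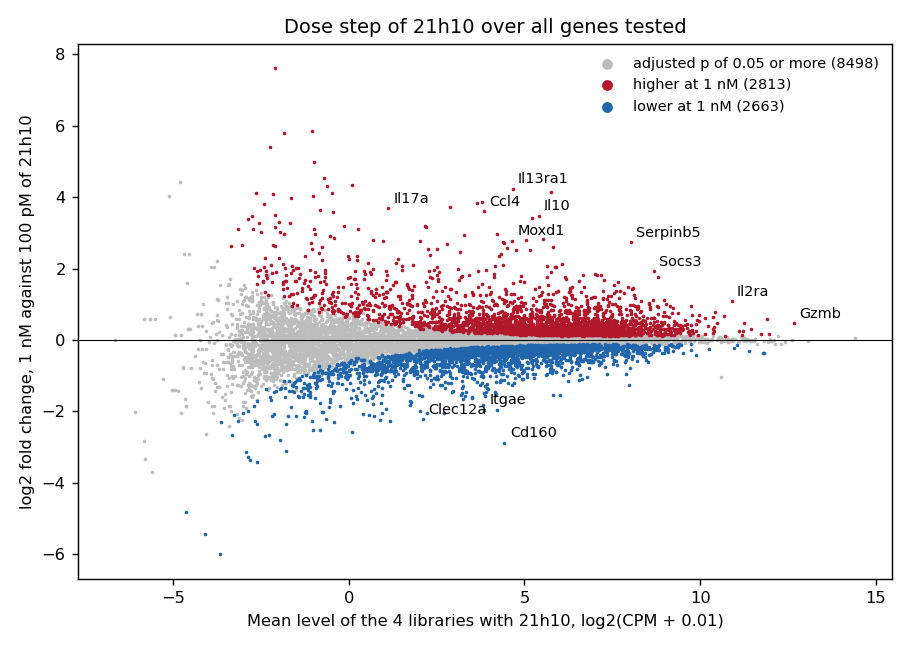
Each point is a gene, with the mean level of the 4 libraries with 21h10 as log2(CPM + 0.01) on the x axis and the log2 fold change of 1 nM against 100 pM on the y axis. Red points are the 2813 genes called higher and blue points the 2663 called lower, and most of them lie close to 0 while Il13ra1, Il10 and Serpinb5 stand far above it and Cd160 below.

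The largest rises were in receptors, cytokines and secreted proteins. Il13ra1, a receptor chain for IL-13 and IL-4 (chromosome X from 36112110 to 36171259 in GRCm38), was at 0.0540 and 0.0363 CPM in unstimulated cells, 2.59 and 2.53 at 100 pM and 42.9 and 53.1 at 1 nM. Its rise of 18.8-fold was 4.23 ± 0.108 (standard error) on the log2 scale (adjusted p = 1.43e-14 in the quasi-likelihood test of edgeR, Benjamini-Hochberg). Values with ± that follow are log2 fold changes from 100 pM to 1 nM of 21h10, or where said differences between such steps, with their standard error. The 3 groups of Il13ra1 did not overlap, and most of the gain in CPM came between 100 pM and 1 nM. Enpp2, which encodes autotaxin, the enzyme that makes lysophosphatidic acid, followed the same course, with 0.130 and 0.109 CPM without cytokine, 5.91 and 5.76 at 100 pM and 93.9 and 110.3 at 1 nM (log2 fold change of the dose step 4.13 ± 0.0898). Crispld2, which encodes a secreted protein, went from 4.16 and 4.19 to 32.4 and 33.2 CPM (2.97 ± 0.123 on the log2 scale).

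Other risers were still low at 100 pM. Il1r1, the signaling receptor for IL-1, was at 0.757 and 0.818 CPM without cytokine, 1.46 and 2.01 at 100 pM and 26.6 and 25.4 at 1 nM (3.85 ± 0.126). Timp1, an inhibitor of matrix metalloproteinases, was at 0.886 and 0.727, 1.59 and 1.67 and 22.7 and 23.8 CPM in the same order (3.83 ± 0.121). Ccl4, an inflammatory chemokine, was at 1.59 and 1.76, 2.13 and 2.21 and 28.2 and 25.005 CPM (3.61 ± 0.102). In these genes the 100 pM libraries lay above the unstimulated ones without overlap, though within a few CPM. Most of the gain in CPM came between 100 pM and 1 nM. Adora2b, an adenosine receptor, had 1.07 and 0.963 CPM without cytokine, 0.940 and 0.894 at 100 pM and 8.53 and 7.83 at 1 nM (3.16 ± 0.146). Tmem158 rose from 1.04 and 1.01 to 14.8 and 12.3 CPM (3.72 ± 0.151).

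Il10, the anti-inflammatory cytokine that IL-21 is known to induce in T cells, had a graded course. It was at 0.465 and 0.491 CPM without cytokine, 7.82 and 6.25 at 100 pM and 78.7 and 76.4 at 1 nM, an 11.2-fold dose step (3.48 ± 0.0878, adjusted p = 1.4e-14 in the quasi-likelihood test of edgeR, Benjamini-Hochberg). Tgm1, an enzyme that crosslinks proteins and whose window with 2 paired sites is printed above, had the same order, at 0.551 and 0.563, 5.81 and 6.69 and 70.1 and 64.7 CPM (3.41 ± 0.0856). Gfra1, a receptor for the growth factor GDNF, rose from 0.825 and 0.937 to 7.52 and 8.74 CPM (3.19 ± 0.165) and Rtn4rl2, a homolog of the Nogo receptor, from 0.326 and 0.194 to 2.46 and 1.82 CPM (3.10 ± 0.303). Mir675, a microRNA gene that lies wholly within an exon of the noncoding gene H19, had 4 and 2 reads at 100 pM and 14 and 20 at 1 nM. Those reads cannot be assigned to the microRNA rather than to H19. Genes on the other strand covered 5.97% of the exonic bases of Enpp2, 5.76% of Tgm1 and 7.597% of Gfra1, and the use of strand in the counting is not stated in the sources used here.

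The largest fall by the same conditions was that of Cd160, a receptor of the immunoglobulin superfamily on cytotoxic lymphocytes that binds HVEM. Its level was 26.5 and 26.5 CPM in unstimulated cells, 39.9 and 36.0 at 100 pM and 4.95 and 5.28 at 1 nM, a 7.37-fold decrease over the dose step (log2 fold change -2.88 ± 0.0775, adjusted p = 2.29e-14 in the quasi-likelihood test of edgeR, Benjamini-Hochberg). The lower dose thus lay above the unstimulated level and the higher dose far below it, with no overlap among the 3 groups. Zfp365, a zinc finger gene, followed the same order with 22.9 and 23.6, 29.3 and 29.6 and 7.94 and 7.25 CPM (-1.96 ± 0.0715).

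In several of the falling genes 100 pM of 21h10 had raised the level above that of unstimulated cells. Cdh1, which encodes E-cadherin, the ligand of the integrin CD103, was at 0.281 and 0.254 CPM without cytokine, 22.7 and 21.3 at 100 pM and 6.07 and 6.23 at 1 nM (-1.83 ± 0.0781). Ace, the angiotensin-converting enzyme, was at 0.0432 and 0.0727, 6.31 and 6.604 and 1.45 and 1.78 CPM (-1.98 ± 0.138), and 5.58% of its exonic bases overlap an antisense gene. Cldn10, a tight junction claudin, was at 0.173 and 0.363, 2.68 and 2.66 and 0.671 and 0.553 CPM (-2.14 ± 0.249). These genes kept part of their gain at 1 nM, since both libraries at that dose were above both unstimulated ones. Clec12a, an inhibitory C-type lectin receptor, was at 1.21 and 1.47 CPM without cytokine, 6.54 and 7.72 at 100 pM and 1.43 and 1.62 at 1 nM (-2.23 ± 0.138), where its values overlapped the unstimulated ones. Itgax was at 3.65 and 2.85, 10.4 and 10.7 and 2.35 and 2.75 CPM (-2.03 ± 0.115) and ended below the unstimulated libraries.

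Other falls began from a level close to or under that of unstimulated cells. Itgae, the alpha chain of CD103, which marks tissue-resident CD8+ T cells, was at 22.7 and 23.5 CPM without cytokine, 22.8 and 22.6 at 100 pM and 6.37 and 5.46 at 1 nM (-1.95 ± 0.0769), with overlap between the first pair of groups and none with the 1 nM libraries. Xcl1, a chemokine that attracts cross-presenting dendritic cells, fell at each step, from 18.1 and 18.6 to 2.13 and 2.11 and then 0.419 and 0.553 CPM (-2.09 ± 0.201), and 18.7% of its exonic bases overlap the gene Gm20743 on the other strand. Gucy1a3, a subunit of soluble guanylate cyclase, fell in the same way, from 17.0 and 17.7 to 7.42 and 7.82 and 1.43 and 2.17 CPM (-2.04 ± 0.132). The remaining named falls were in Spin2c (-2.58 ± 0.243), Fam26f (-2.26 ± 0.198), Gm14446 (-1.92 ± 0.176) and Slc6a19, an amino acid transporter (-1.83 ± 0.141). All 28 genes named by size of change had no overlap between the 2 doses, a condition of the rule that 66% of all genes tested also met.

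**Figure D2:**
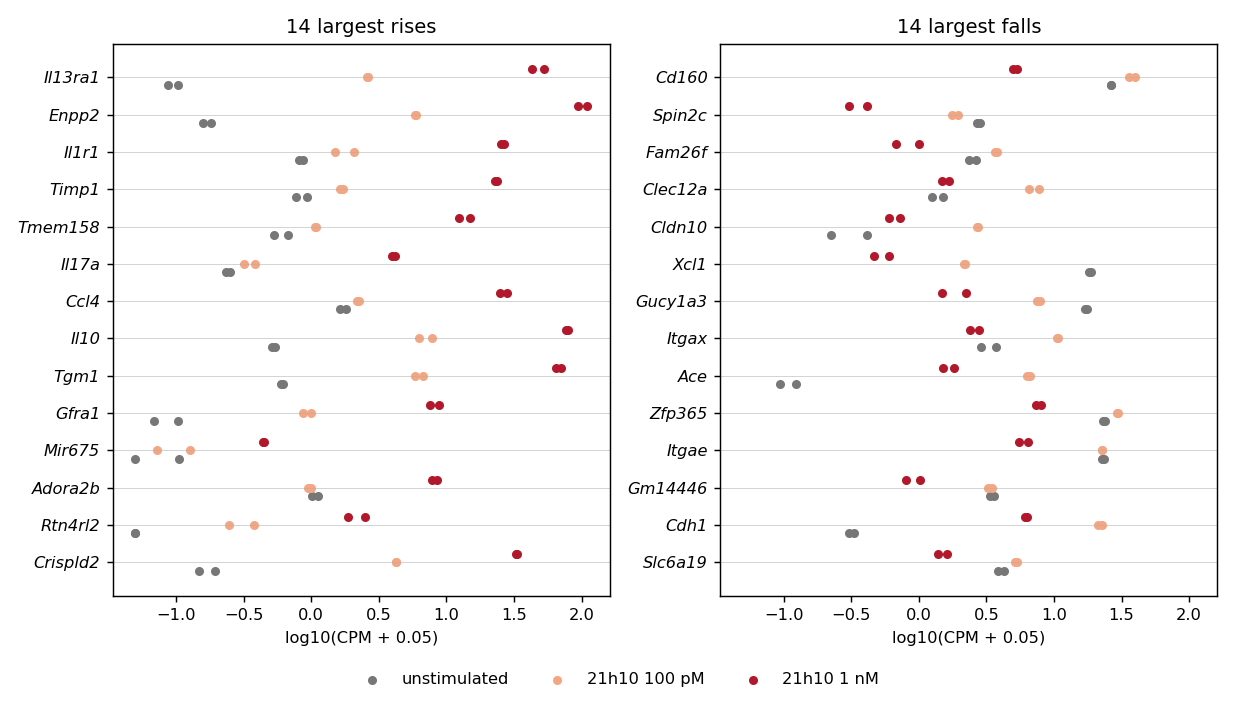
Each point is 1 library, with log10(CPM + 0.05) on the x axis and the 14 genes with the largest rises (left) and falls (right) on the y axis, for unstimulated cells (grey), 100 pM (light) and 1 nM (dark red) of 21h10. For Il1r1, Timp1 and Ccl4 the 100 pM points lie near the grey ones, while for Cdh1, Ace and Clec12a the 100 pM points are the highest of the 3 groups.

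Among genes of the pathway itself, the receptor and several STAT genes rose with dose. Of 13 genes for the IL-21 receptor chains, JAK kinases and STAT factors, 8 rose, 3 fell and 2 did not pass the test, with a median log2 fold change of 0.37 against -0.0057 over all genes. Il21r, the receptor chain particular to IL-21, was at 125 and 121 CPM without cytokine, 212 and 211 at 100 pM and 336 and 317 at 1 nM (0.63 ± 0.0463, adjusted p = 7.68e-09 in the quasi-likelihood test of edgeR, Benjamini-Hochberg). Stat5a rose most in this list, from 143.3 and 146 to 414 and 386 CPM (1.46 ± 0.0479), and 12.6% of its transcript is shared with Stat5b. Stat2, part of the interferon-stimulated complex ISGF3, rose from 92.3 and 93.4 to 137.9 and 133 CPM (0.54 ± 0.0474). Stat4, which transmits IL-12 signals, fell from 245 and 248 to 149 and 154 CPM (-0.70 ± 0.0521), and an overlapping gene on the same strand covers 26.7% of its exonic bases.

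Of 8 SOCS family genes, the feedback inhibitors of the pathway, 5 rose and none fell (median 0.26), with 4 higher in limma, with total reads and in 3 of the 4 fits that left out a library. Socs3 (chromosome 11 from 117966079 to 117970047) was at 6.57 and 6.67 CPM without cytokine, 172 and 169 at 100 pM and 686 and 606 at 1 nM, a 3.78-fold dose step (1.92 ± 0.0576, adjusted p = 8.45e-14 in the quasi-likelihood test of edgeR, Benjamini-Hochberg). Its promoter window printed above held 1 paired site. Cish, a target and inhibitor of STAT5, rose from 81.2 and 82.5 to 152 and 137.97 CPM (0.82 ± 0.0532), Socs1 from 22.9 and 21.4 to 38.8 and 31.2 CPM (0.66 ± 0.107) and Socs4 by 0.35 on the log2 scale. The 3 other members did not pass the test.

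Of 20 genes listed here as linked to STAT3, 18 rose and none fell, with a median of 0.75, beside 20.1% of all genes that rose. Over the alternatives 16 to 18 rose and none fell. The list was put together with earlier results of these data known. It shares Batf, Maf and Bcl3 with the effector factors below and Il1r1 with the cytokine receptor chains, so these lists are not separate results. Gadd45g, a stress-inducible regulator of the cell cycle, rose from 23.8 and 22.6 to 102 and 90.6 CPM (2.05 ± 0.0734). Il23r, which lets T cells respond to IL-23, was at 1.08 and 1.09 CPM without cytokine, 0.748 and 1.24 at 100 pM and 6.96 and 7.23 at 1 nM (2.77 ± 0.194). Cebpd, a C/EBP transcription factor, rose by 1.497 ± 0.185, with 15.003% of its exonic bases overlapping the gene Spidr on the other strand.

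Of 18 factors of effector differentiation 14 rose and 2 fell (median 0.74). Batf, an AP-1 factor that supports effector CD8+ T cells, had 53.5 and 54.1 CPM without cytokine, 46.8 and 46.9 at 100 pM and 101.4 and 97.4 at 1 nM (1.08 ± 0.0529). Irf8 rose from 111 and 111 to 229 and 206.5 CPM (0.97 ± 0.0628) and Maf, a factor known to drive Il10, from 3.13 and 2.81 to 5.82 and 6.54 CPM (1.08 ± 0.131). Batf was above the unstimulated level only at the upper dose, whereas Prdm1, which encodes Blimp-1, the repressor that promotes terminal effector cells, was already raised at the lower one. Prdm1 was at 11.9 and 12.1 CPM without cytokine, 55.9 and 54.4 at 100 pM and 94.0 and 101.2 at 1 nM (0.83 ± 0.0512).

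Tbx21, which encodes T-bet, took a different course, with 80.5 and 79.2 CPM in unstimulated cells, 64.8 and 64.4 at 100 pM and 92.8 and 87.2 at 1 nM. The lower dose was the lowest of the 3 groups and the upper dose the highest, and the dose step was 0.48 ± 0.0579 (adjusted p = 3.52e-06 in the quasi-likelihood test of edgeR, Benjamini-Hochberg). Tcf7, which encodes TCF-1, a factor of resting and stem-like T cells, had the reverse order, with 294 and 298 CPM without cytokine, 411 and 424 at 100 pM and 296 and 275 at 1 nM (-0.55 ± 0.0464). At 1 nM its values overlapped those of unstimulated cells. Of 20 memory and quiescence genes 9 rose and 9 fell, among them Id3 (-1.56 ± 0.198), Klf3 (-0.76 ± 0.101) and Tob1 (-0.60 ± 0.0760), which fell, and Zeb1 (0.84 ± 0.0611), which rose. With total reads, in limma and in the fit of the compared groups alone, 6 of this list rose and 9 fell. In DESeq2 and with median-of-ratios scaling 10 rose and 9 fell.

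Of 19 cytotoxic effector genes 9 rose and 5 fell (median 0.26), with 3 lower in DESeq2, without the first 100 pM library and without the second 1 nM library. Prf1, which encodes the pore-forming protein perforin, was at 18.6 and 18.4 CPM without cytokine, 113 and 101.5 at 100 pM and 280.2 and 249.5 at 1 nM (1.31 ± 0.0604, adjusted p = 1.72e-11 in the quasi-likelihood test of edgeR, Benjamini-Hochberg). Gzmb, the main granzyme of these cells, went from 2832 and 2792 CPM to 5490.4 and 5432 and then 7456 and 7713 (0.47 ± 0.0444). The groups of both genes stood in dose order with no overlap. Tnfsf10, which encodes the death ligand TRAIL, rose by 0.77 ± 0.0513 and Gzme by 0.84 ± 0.207, while Gzmg, at under 1 CPM in all 4 libraries, fell by 0.83 on the log2 scale, a call lost in DESeq2, without either 1 nM library and without the second 100 pM library.

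Cytokine genes included some of the largest fold changes, several from very low levels. Of 21 tested 11 rose and 6 fell (median 0.50). Il17a, which encodes IL-17A, was at 0.184 and 0.200 CPM without cytokine, 0.268 and 0.334 at 100 pM and 3.89 and 4.11 at 1 nM (3.69 ± 0.231), with 14 and 31 reads at 100 pM. Il17f had 3 and 13 reads at 100 pM and 50 and 64 at 1 nM (3.57 ± 0.397). Il22 had 2 and 0 reads at 100 pM, at or under the floor of 3 reads, and 35 and 45 at 1 nM (0.979 and 0.889 CPM), and a near-identical copy, Iltifb, matches its whole transcript. All 3 genes belong with Il23r to those known for type 17 T cells, and all were at a few CPM or less even at the upper dose. Ifng was at 5.60 and 5.45 CPM without cytokine, 4.49 and 4.66 at 100 pM and 10.0 and 10.2 at 1 nM (1.14 ± 0.103), with 25.9% of its exonic bases shared with a transcript on the same strand. Its lower-dose libraries were under the unstimulated ones and its upper-dose libraries above them.

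Of 10 chemokines tested, 3 rose and 1 fell: Ccl4 and Xcl1 are given above, Ccl9 rose from 8.03 and 7.83 to 27.0 and 27.1 CPM (1.77 ± 0.0805) and Ccl3 from 1.67 and 1.48 to 3.19 and 2.57 CPM (0.87 ± 0.172). Chemokine receptors were divided, with 5 of 15 higher and 4 lower, beside 20.1% and 19.1% of all genes tested. Cxcr3, known for guiding effector T cells to inflamed tissue, fell at both steps, from 49.1 and 50.5 to 23.3 and 21.7 and 9.34 and 7.99 CPM (-1.38 ± 0.0770). Ccr4, linked to skin homing, was at 69.5 and 71.5 CPM without cytokine, 13.8 and 14.4 at 100 pM and 33.9 and 35.4 at 1 nM (1.29 ± 0.0670), so the upper dose lay between the other groups. Ccr3 rose by 1.37 ± 0.209 from under 1 CPM.

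Of 23 other cytokine receptor chains 7 rose and 9 fell. Il2ra, the high-affinity chain of the IL-2 receptor, was at 949.8 and 932 CPM without cytokine, 1213 and 1213 at 100 pM and 2584 and 2587 at 1 nM (1.09 ± 0.0444). Il6ra rose by 1.36 ± 0.123, from 2.93 and 3.31 CPM to 7.74 and 8.42, and Il9r, at under 1 CPM, had a log2 fold change of -1.16 ± 0.395 that passed the edgeR test but not DESeq2, and not when the second 1 nM library or either 100 pM library was left out. Costimulatory receptors rose in 9 of 17 and fell in 4. Tnfrsf8, which encodes CD30, rose from 102 and 95.5 to 315 and 293 CPM (1.62 ± 0.0554) and Tnfrsf25 by 1.63 ± 0.210. Slamf6, a homotypic receptor also used as a marker of stem-like T cells, fell from 16.3 and 17.3 to 6.21 and 5.14 CPM (-1.59 ± 0.0948) and Cd226, an activating receptor, from 104 and 103 to 44.7 and 48.9 CPM (-1.14 ± 0.0693).

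Inhibitory receptors and exhaustion-linked genes went both ways, with 5 of 18 higher and 5 lower, beside 20.1% and 19.1% of all genes tested. Entpd1, which encodes the ectonucleotidase CD39, was at 6.34 and 6.70 CPM without cytokine, 46.3 and 43.8 at 100 pM and 138.9 and 144 at 1 nM (1.65 ± 0.0516). Beside Cd160, Cd101 fell by 1.25 and Nr4a3 by 1.18 on the log2 scale. Integrins and adhesion genes fell in 8 of 17 and rose in 4 (median -0.20), and those named were Itgax, Itgae, Cdh1 and Itga1 (-1.06 ± 0.224). Of 17 NK-type receptors 3 rose and 1 fell, beside 20.1% and 19.1% of all genes tested. The 3 were Klrk1 (0.62 ± 0.0543), Klrc1 (0.53 ± 0.0696) and Klrc2 (0.41 ± 0.0968). Klrd1 fell (-0.26 ± 0.0689), a call lost without the first 100 pM or the second 1 nM library. Klrc2 covers 79.8% of the Klrc1 transcript at near identity, so reads of the pair are uncertain, and 4 of the list fell with total reads as the scale and 3 without the second 100 pM library. The T cell receptor complex and its kinases fell in 9 of 16 and rose in 3 (median -0.16), by 0.58 for Lcp2, 0.39 for Cd8b1 and 0.29 for Cd3g.

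**Figure D3:**
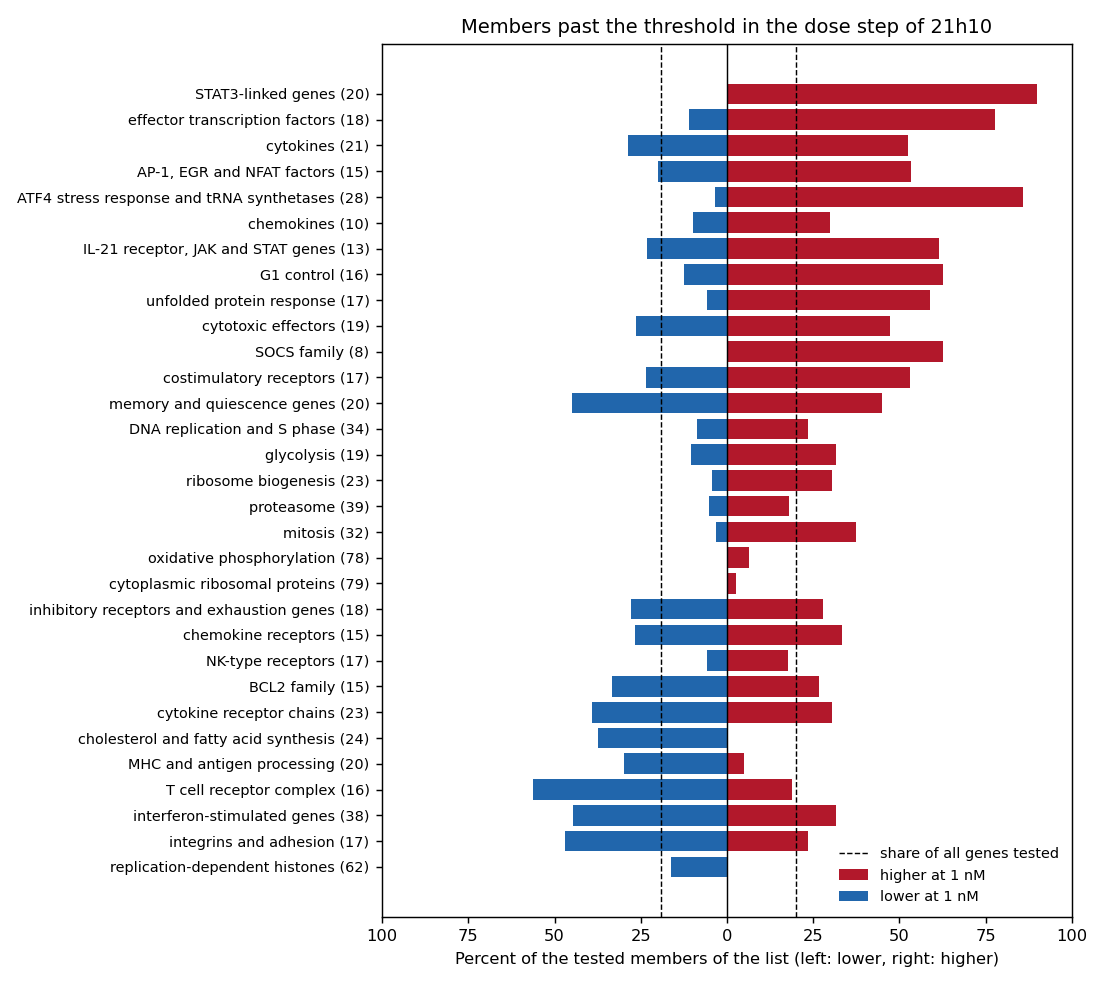
Bars give the percent of the tested members of each gene list that were called higher (red, right) or lower (blue, left) at 1 nM than at 100 pM of 21h10, with the number tested in parentheses, in order of median log2 fold change. Dashed lines mark the shares among all genes tested, 20.1% higher and 19.1% lower, and the STAT3-linked list and the ATF4 list reach farthest to the right.

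Of 28 genes of the ATF4 stress response and tRNA synthetases, 24 rose and 1 fell (median 0.46). Slc7a5 and Slc3a2 form the LAT1 transporter for large neutral amino acids. Slc7a5 was at 192.4 and 191 CPM without cytokine, 202.4 and 199 at 100 pM and 711 and 663 at 1 nM (1.77 ± 0.0534), and Slc3a2 at 131 and 129, 255 and 249 and 552 and 546 CPM (1.12 ± 0.0456). The 100 pM libraries of Slc7a5 lay close to the unstimulated ones, while Slc3a2 rose at both doses. Cth, an enzyme of cysteine synthesis, rose from 13.0 and 13.98 to 44.8 and 48.8 CPM (1.79 ± 0.0866) and Chac1, which degrades glutathione, by 1.13 ± 0.145.

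Of 17 genes of the unfolded protein response 10 rose and 1 fell (median 0.30). Hspa5, which encodes the chaperone BiP, was at 811 and 793 CPM without cytokine, 291 and 300.0 at 100 pM and 536 and 604 at 1 nM (0.95 ± 0.0565), and Xbp1, a factor of this response, rose from 98.0 and 93.4 to 177 and 166 CPM (0.85 ± 0.0506). The upper dose of Hspa5 remained under the unstimulated level. Sdf2l1 rose by 0.66 ± 0.0663 and Hsp90b1 by 0.55 ± 0.0567. G1 control genes rose in 10 of 16 and fell in 2 (median 0.36), with none lower without the second 100 pM library. Cdk6, which drives entry into S phase, rose from 76.9 and 80.04 to 175 and 186 CPM (1.20 ± 0.0514), and Cdkn1a, which encodes the inhibitor p21, from 321 and 332 to 508 and 500.4 CPM (0.63 ± 0.0459).

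Growth and housekeeping lists moved little, and for several the direction depended on the scaling. Their counts stand beside 20.1% higher and 19.1% lower among all genes tested. DNA replication genes had 8 of 34 higher and 3 lower, but 5 higher and 10 lower with total reads, 5 and none without the first 100 pM library, and 7 and 5 without the first 1 nM library. The members named were Rfc3 (0.67 ± 0.0514), Mcm4 (0.32 ± 0.0492), Ccne2 (0.26 ± 0.0606, not past the limma test) and Pcna (0.24 ± 0.0469). Mitosis genes had 12 of 32 higher and 1 lower, with Cenpf (0.51 ± 0.0945) and Mki67 (0.39 ± 0.0770) among those that rose, and 7 higher and 4 lower with total reads, or 7 and 1 without the first 100 pM library or without the second 1 nM library. Ribosome biogenesis had 7 of 23 higher and 1 lower (3 and 2 with total reads, 4 and none without the first and 3 and 1 without the second 100 pM library), led by Rrp12, which went from 17.1 and 16.02 to 34.3 and 33.0 CPM (1.03 ± 0.0656). Glycolysis had 6 of 19 higher and 2 lower (4 and 4 with total reads), and its glucose transporter Slc2a1 rose by 0.41 ± 0.0465. Calls were few among 79 ribosomal protein genes (2 higher, none lower, and none and 9 with total reads), 78 genes of oxidative phosphorylation (5 and none, 3 and 4 with total reads) and 39 proteasome genes (7 and 2, 4 and 6 with total reads). Without the second 100 pM library these counts were none and none, 3 and none, and 4 and 1, and without the first 100 pM library 1, 4 and 4 were higher and none lower.

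Of 24 genes of cholesterol and fatty acid synthesis 9 fell and none rose (median -0.08), with 4 lower when the second 100 pM library was left out, and 1 higher with 7 or 8 lower under DESeq2 and median-of-ratios scaling. Hmgcs1, an early enzyme of sterol synthesis, was at 165 and 160.0 CPM without cytokine, 429.6 and 439.6 at 100 pM and 369.6 and 371 at 1 nM (-0.23 ± 0.0503). Dhcr7, which acts at the end of that pathway, fell by 0.34 on the log2 scale. Interferon-stimulated genes were divided, with 12 of 38 higher and 17 lower (median -0.19). The guanylate-binding proteins Gbp6 (1.37 ± 0.0682) and Gbp4 (1.22 ± 0.0654) rose, whereas the antiviral gene Mx1 fell from 9.45 and 10.11 to 4.08 and 4.35 CPM (-1.21 ± 0.107) and Ifi44 fell by 2.02. Of 20 MHC and antigen processing genes 6 fell, among them the peptide transporter Tap2 (-0.42 ± 0.0536), and 1 rose, but 3 fell and 3 rose without the second 1 nM library, and 5 fell and 3 rose in DESeq2 and with median-of-ratios scaling. The AP-1, EGR and NFAT factors rose in 8 of 15 and fell in 3, with Jun at 1.11 ± 0.0640, Fosl2 at 0.71 ± 0.0504 and Egr1 at -0.87 ± 0.133. Of 15 BCL2 family genes 4 rose and 5 fell, beside 20.1% and 19.1% of all genes tested. Among them were Bcl2, an inhibitor of apoptosis (0.86 ± 0.0610), and Bcl2l11, which encodes the promoter of apoptosis BIM (0.76 ± 0.0487), both higher. Bcl2a1a and Bcl2a1b fell by 0.73 and 0.75. They are near-identical copies of each other and of Bcl2a1d, also in this list, so their reads cannot be separated. Replication-dependent histones had 10 of 62 lower and none higher, beside 19.1% of all genes tested that were lower. The calls came from near-identical genes at a few CPM or less, such as Hist1h2ae (-0.86 ± 0.210). Fewer were lower when the first 1 nM library or the second 100 pM library was left out.

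The native cytokine was measured over the same step in other libraries of the same fit. The question was where the dose steps of 21h10 and mIL-21 differed. On the first and second principal components the 100 pM libraries of mIL-21 lay at 2.22 and 2.12 and at -43.3 and -43.8. Its 1 nM libraries lay at 30.8 and 32.5 and at -6.01 and -6.52, near the 100 pM libraries of 21h10. The study too describes a similar profile for these 2 groups. The steps thus began and ended at different points, and whether the cytokines differ in kind was not tested. For mIL-21, 4825 genes were called (34.5%), 2503 higher (17.9%) and 2322 lower (16.6%), and 3008 when the first 100 pM library of mIL-21 was left out. Both steps changed 2617 genes in the same direction, which is 47.8% of the 21h10 calls and 54.2% of the mIL-21 calls, and 253 in opposite directions. Over the 13974 genes the 2 sets of log2 fold changes correlated with Pearson's r = 0.54 and Spearman's rho = 0.48, a description across genes that share an annotation and a normalization. The difference between the steps, tested as an interaction in edgeR, was past the threshold for 2569 genes (18.4%), with 1166 positive (8.34%) and 1403 negative (10%). Positive differences made up 45.4% of these with TMM, 42.5% with total reads, 55.6% with median-of-ratios scaling, 56.8% in DESeq2 and 63.2% in limma. Without the first or second 100 pM library of mIL-21 the count was 1665 or 1650.

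Among the largest positive differences in genes of at least 1 RPKM in any of the 4 groups were those of genes that rose with 21h10 and fell, or rose less, with mIL-21. Tnip3, an inhibitor of NF-kappaB signaling, rose from 2.13 and 2.26 to 7.94 and 9.19 CPM with 21h10 (1.96 ± 0.133) and fell from 3.79 and 3.54 to 1.84 and 2.56 CPM with mIL-21 (-0.73 ± 0.162). The difference was 2.69 ± 0.209 (adjusted p = 1.71e-07 in the quasi-likelihood test of edgeR, Benjamini-Hochberg). Gbp10, an interferon-inducible GTPase, rose from 58.0 and 54.7 to 184 and 222 CPM with 21h10 and fell from 81.7 and 82.4 to 70.2 and 60.6 CPM with mIL-21, a difference of 2.18 ± 0.110. Gbp6 had a difference of 1.51 ± 0.0965, but 97.8% of the Gbp10 transcript matches Gbp6 at near identity, so the 2 genes cannot be counted apart. Il17a and Il1r1 rose with both cytokines and more with 21h10, with differences of 2.12 ± 0.557 and 2.09 ± 0.297. The mIL-21 libraries with 1 nM had 2.28 and 2.56 CPM of Il1r1, against 26.6 and 25.4 with 21h10. Mir6903, with 7 and 12 reads at 100 pM and 16 and 29 at 1 nM of 21h10, had a difference of 2.58 ± 0.657 and has 6.82% of its bases in an exon of Atp2b4.

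The largest negative differences, by the same limit, included those of Moxd1, Serpinb5 and Kif1a, which 100 pM of 21h10 had already raised far above the unstimulated level. Moxd1, a monooxygenase-like gene, was at 6.23 and 6.38 CPM at 100 pM and 44.7 and 42.5 at 1 nM with 21h10, and at 0 and 0.0513 and 3.12 and 3.19 CPM with mIL-21, a difference of -4.19 ± 0.536. With 100 pM of mIL-21 the libraries had 0 and 2 reads of Moxd1, under the floor of 3 reads, so the size of that difference depends on the prior count of the fit. Serpinb5, which encodes maspin, was at 0.141 and 0.145 CPM without cytokine, 68.7 and 67.4 and 447 and 462 with the 2 doses of 21h10 and 1.51 and 1.20 and 69.8 and 69.8 with those of mIL-21, a difference of -2.93 ± 0.107 (adjusted p = 3.33e-11 in the quasi-likelihood test of edgeR, Benjamini-Hochberg). Kif1a, a kinesin, was at 22.8 and 24.0 and 35.4 and 33.8 CPM with 21h10 and at 1.88 and 2.00 and 20.4 and 24.5 with mIL-21 (-2.98 ± 0.142). In both Serpinb5 and Kif1a the libraries with 1 nM of mIL-21 lay within a few CPM of those with 100 pM of 21h10. Tff1, at under 1 CPM and with 31.4% of its exonic bases shared with an antisense gene, had a difference of -2.79 ± 0.511. Mir6236 had one of -2.79 ± 0.710, but its levels differed between duplicates, at 63.1 and 17.5 CPM with 100 pM of 21h10 and 24.5 and 78.3 with 1 nM of mIL-21. Its dose step with 21h10 did not pass the test (-0.93 ± 0.491, adjusted p = 0.149 in the quasi-likelihood test of edgeR, Benjamini-Hochberg) and turned to 0.24 without the first 100 pM library.

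**Figure D4:**
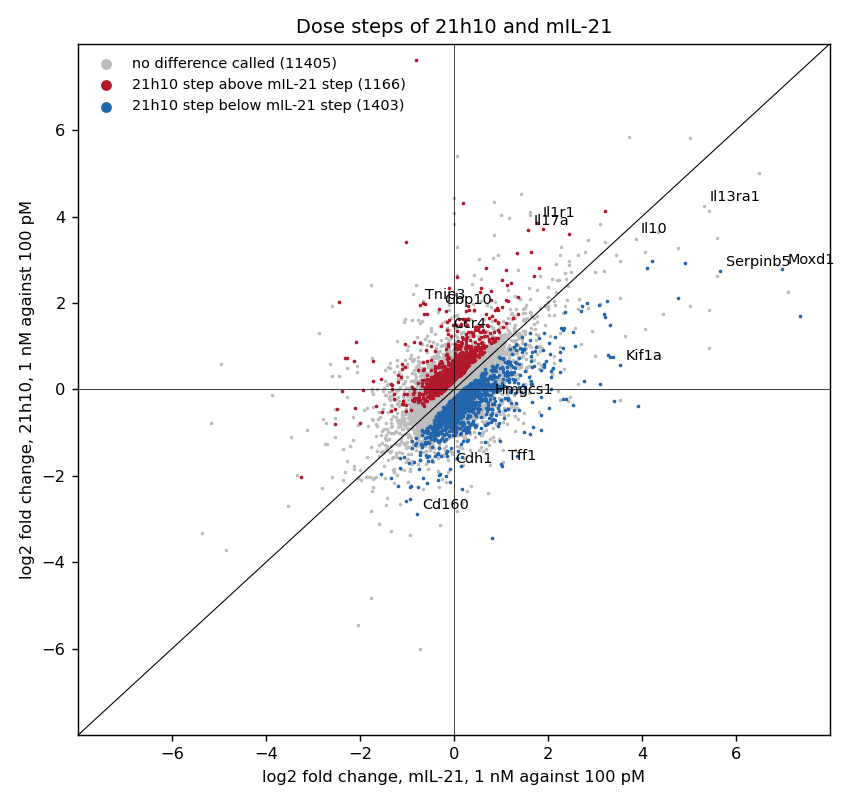
Each point is a gene, with the log2 fold change of 1 nM against 100 pM of mIL-21 on the x axis and that of 21h10 on the y axis. Colours mark the 1166 genes whose 21h10 step lay above (red) and the 1403 whose step lay below (blue) the mIL-21 step by the interaction test, with Tnip3 and Gbp10 left of the vertical axis and Moxd1, Serpinb5 and Kif1a far to the right of the diagonal.

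Surface and adhesion genes had dose steps that differed between the cytokines as well. Cd160 fell with both, but from 58.2 and 56.9 to 33.2 and 33.1 CPM with mIL-21 against 39.9 and 36.0 to 4.95 and 5.28 with 21h10, a difference of -2.09 ± 0.101. Cdh1 did not pass the test in the mIL-21 step, at 23.3 and 22.96 and 22.3 and 21.1 CPM (-0.09 ± 0.0687), and its difference was -1.74 ± 0.105 (adjusted p = 6.52e-09 in the quasi-likelihood test of edgeR, Benjamini-Hochberg). Cldn10 behaved like Cdh1, with 3.07 and 2.18 and 2.68 and 2.34 CPM under mIL-21 and a difference of -2.06 ± 0.329. Ccr4 had 18.4 and 17.8 and 15.5 and 17.5 CPM with mIL-21, both near the 100 pM level of 21h10, and a difference of 1.42 ± 0.0986. Other genes did not pass the test of the difference, such as Il10 (-0.38 ± 0.206, adjusted p = 0.23), Prdm1 (0.07 ± 0.0742, adjusted p = 0.574) and Il2ra (0.09 ± 0.0622, adjusted p = 0.385), all in the quasi-likelihood test of edgeR, Benjamini-Hochberg, which does not show that the steps were equal.

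Among genes of signaling and function, Stat5a rose more with 21h10 (0.74 ± 0.0677) and so did Batf (0.63 ± 0.0763) and Irf8 (0.64 ± 0.0893). Tbx21 rose with 21h10 and fell with mIL-21, from 77.0 and 73.6 to 63.2 and 71.7 CPM, for a difference of 0.64 ± 0.0827. Socs3, Prf1 and Gzmb rose less in the 21h10 step, with differences of -0.80 ± 0.0818, -0.30 ± 0.0873 and -0.57 ± 0.0627, and in each the 100 pM libraries of 21h10 lay above those of mIL-21. Socs3 was at 47.8 and 44.6 and 296 and 312 CPM at the 2 doses of mIL-21, against 172 and 169 and 686 and 606 with 21h10. Gzmb was at 2954 and 2964 and 6072 and 6114 CPM with mIL-21 and Prf1 at 45.9 and 43.0 and 133.8 and 137.1.

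Several lists of genes had dose steps that differed between the cytokines. Over all genes tested, 17.9% rose and 16.6% fell in the mIL-21 step, and the difference was positive for 8.34% and negative for 10%. Sterol and fatty acid genes rose in 21 of 24 with mIL-21 and fell in 9 of 24 with 21h10, and the difference was negative for 20 of them and positive for none (19 to 21 negative and none positive over the scalings and tools). For Hmgcs1 the mIL-21 libraries had 244 and 238 CPM at 100 pM and 429 and 387 at 1 nM. Those at 1 nM were no higher than the 100 pM libraries of 21h10 given above. The difference between the steps was -0.99 ± 0.0716. DNA replication genes fell in 23 of 34 with mIL-21 and their difference was positive for 21 and negative for none, as for 15 of 23 ribosome biogenesis genes and 9 of 17 of the unfolded protein response. The positive counts for replication ranged from 18 to 24 of 34 and those for ribosome biogenesis from 15 to 17 of 23 over the scalings and tools. The ATF4 list rose in 24 of 28 with each cytokine, with 10 negative and 2 positive differences. The STAT3-linked list rose in 16 of 20 with mIL-21, where 3 fell, and its members had 7 positive and 2 negative differences.

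**Figure D5:**
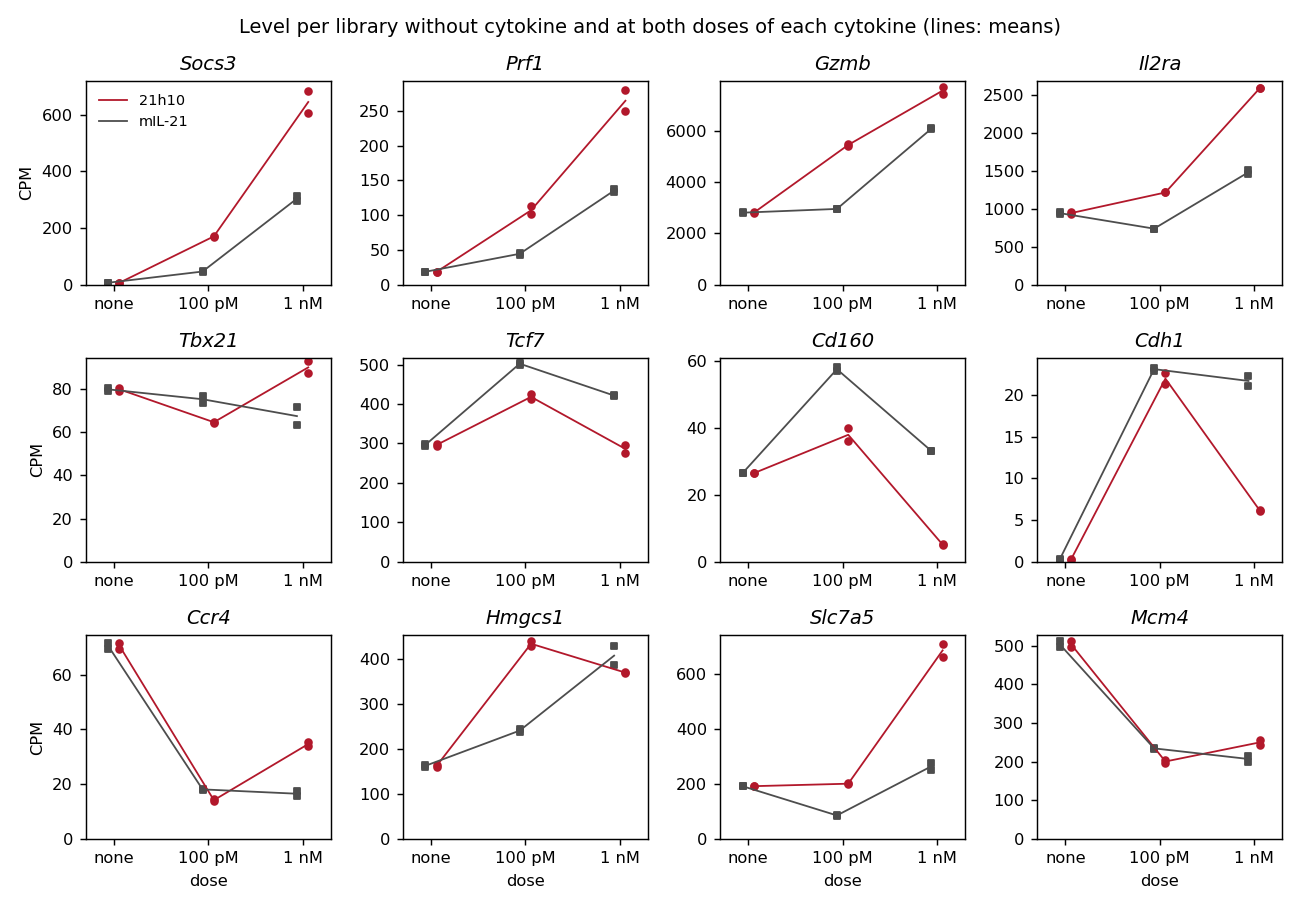
Panels give CPM per library (y axis, from 0) for 12 named genes without cytokine, at 100 pM and at 1 nM (x axis), with 21h10 in red and mIL-21 in grey and lines through the means of 2 libraries. Socs3 and Slc7a5 are highest at 1 nM of 21h10, while Cdh1 and Cd160 fall there and stay higher with mIL-21.

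The next dose step of 21h10, from 10 nM to 100 nM, was measured in experiment 2 and shares no library with the one described. It called 734 of 13772 genes (5.33%), 259 higher (1.88%) and 475 lower (3.45%), with a coefficient of variation between duplicates of 8.80%, against 4.32% in experiment 1. Leaving out 1 of its 4 libraries gave 254 (first of 100 nM), 288 (second of 100 nM), 338 (first of 10 nM) or 279 calls (second of 10 nM). Of the 13248 genes tested in both, 313 passed in both steps with the same direction and 196 with opposite directions. The 313 were 5.87% of the calls of the first step and 43.1% of those of the second. Of the genes higher in the first step 3.99% were also higher in the second, beside 1.92% of all genes tested in both. For lower genes these shares were 7.82% and 3.57%. In turn, 42.5% of the genes higher in the second step were higher in the first, and 43.3% of those lower were lower. Among all genes tested in experiment 1, 20.1% were higher and 19.1% lower in the first step. Over the 13248 genes the 2 sets of log2 fold changes correlated with Pearson's r = 0.0554 and Spearman's rho = 0.108. Since dose range and experiment changed together, they cannot be told apart. Il10 was at 55.5 and 50.5 CPM at 10 nM and 75.2 and 67.6 at 100 nM (0.43 ± 0.0998, adjusted p = 0.0183 in the quasi-likelihood test of edgeR, Benjamini-Hochberg). Socs3 was at 315 and 313 and 262 and 261 CPM (-0.26 ± 0.0732) and Il1r1 at 21.5 and 21.9 and 13.0 and 12.6 (-0.76 ± 0.126), both lower at the upper dose. Itgax (-1.52 ± 0.145), Itgae (-1.44 ± 0.142), Cd160 (-0.54 ± 0.127) and Clec12a (-2.23 ± 0.605) fell in the higher range too, whereas Cdh1 rose (1.17 ± 0.185). Prf1 (0.19 ± 0.0932), Stat5a (-0.06 ± 0.0927) and Enpp2 (0.21 ± 0.196) did not pass the test there.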

How the data were processed

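Messenger RNA of activated mouse CD8+ T cells was sequenced in 20 libraries of 2 experiments. As the study and the submitters' processing notes describe, the authors aligned reads with TopHat2 (2.0.11) and Bowtie2 (2.2.6) to mm10 (GRCm38), using SAMtools (0.1.8) and bedtools (2.25.0), and deposited per transcript the raw read counts on exons and the RPKM. The annotation version and the use of strand are not given in the sources used here. The transcript with the greatest length stood for each of 23992 symbols, from 31682 transcripts (4343 symbols had several). Libraries were grouped by their labels. The members and gene lists were chosen with earlier results of these data known.

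Counts of the 10 libraries of an experiment were fitted together in edgeR (4.0.16, R 4.3.3), with TMM scaling, filterByExpr (minimum count 10, minimum total 15), group as the only factor and the quasi-likelihood test, and p-values were adjusted by Benjamini-Hochberg over all genes tested, with 0.05 as the threshold. Standard errors are the absolute log2 fold change divided by the root of F. DESeq2 (1.42.0) and limma (3.58.1) on log2(RPKM + 1) were alternatives, with other scalings, no filter, a log2 limit of 1, a fit limited to the groups compared, a block for replicate number, the transcript with the most reads and each library left out. On simulated counts for the 21h10 step, 79.3% of genes changed by 0.5 and 89.4% of those changed by 1 on the log2 scale were recovered. Of the calls, 4.27% and 8.25% were false. The simulation changed 200 genes in the 1 nM group of 21h10 alone, against 5476 calls in the data. Its rates therefore need not hold for the real step. Depth of experiment 2 was 27074399 to 43303144 reads on genes. A floor of 3 reads per library marked levels too low for a fold, and depth limits counting error only.

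Genes were named by a rule: the 14 largest rises and 14 largest falls among called genes without overlap between the doses and with a mean RPKM of at least 1 where higher, the 5 largest positive and 5 largest negative called differences between the cytokines with a mean RPKM of at least 1 in any of the 4 groups, up to 4 called members of each of 31 lists (2 where none was called), and Tbx21, Prdm1, Prf1, Gzmb, Tcf7, Ifng and Il21r. Gene positions came from GENCODE annotation of GRCm38, promoters from RefSeq on GRCm38.p6, and near-identical transcripts from BLAST (2.17.0). Some genes that the rule names are not reported here.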

Additional observations from a re-analysis of the deposited data

Results flagged for a closer look

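The dose step differed between 21h10 and mIL-21 for 2569 genes by the interaction contrast in edgeR, at a Benjamini-Hochberg adjusted p under 0.05. Among the genes named, the step of 21h10 exceeded that of mIL-21, on the log2 scale, by 2.69 for Tnip3, by 2.58 for Mir6903, by 2.18 for Gbp10, by 2.12 for Il17a and by 2.09 for Il1r1. The difference had the other sign for Moxd1 (-4.19), Kif1a (-2.98), Serpinb5 (-2.93), Tff1 (-2.79) and Mir6236 (-2.79). With pairs of libraries, no group was large enough to look for a library far from its group.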

How the results depend on the processing

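With a log2 fold change of at least 1 required, the calls were 662 for the 21h10 step, 555 for the mIL-21 step, 288 for their difference, 4487 and 4718 for 100 pM and 1 nM of 21h10 against unstimulated cells, and 121 for the step from 10 nM to 100 nM, fewer by construction. That last step had 1553 calls with the compared groups alone, 409 in limma and 1150 without the filter on low counts, and the cause was not tested. Leaving out 1 library gave 4070 to 5752 calls for the 21h10 step, 3008 to 4255 for the mIL-21 step, 1650 to 3268 for their difference, 10466 to 10819 and 10470 to 10896 against unstimulated cells, and 254 to 338 from 10 nM to 100 nM, a lone library being assumed to vary like the others. Fits with a replicate block gave 5225, 4557, 2352, 11312, 11113 and 823 calls in the same order. Deviations of same-numbered 21h10 libraries correlated at 0.0293, and at -0.0617 to 0.0293 over all pairs of groups in experiment 1. Such values cannot show whether same-numbered libraries share an animal or a preparation, which the labels do not state. In the nearest 150 bases, 7.05% of promoters held the paired site, against 12.4% in 250 bases, a shorter window by construction. Among 153 named genes, 1766 recomputed values kept their direction and side of the threshold, 58 of 16 genes lost the call, and Mir6236 gained it in 3 (log2 fold change -0.93 as reported), ranging from -1.61 to 0.24 without replicate 2 or replicate 1 of 100 pM of 21h10. Other scalings of the 21h10 step kept the count between 5476 and 5887 but not the balance of directions, as given in the text. Depth limits genes of a few reads, such as Il22, Mir675, Il9r, Gzmg and Tff1.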
